A study of Drosophila melanogaster with 48 samples.

Results

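The genes described are 8 antimicrobial peptide genes of *Drosophila melanogaster*: the 4 cecropins *CecA1*, *CecA2*, *CecB* and *CecC*, and *Def* (Defensin), *Dro* (Drosocin), *Mtk* (Metchnikowin) and *Listericin*. They were chosen by gene name, are 8 of the 17558 genes in the expression table, and are described over 8 stages in 2 genotypes, library by library. The RNA-Seq libraries were made from whole *Ptth* mutants (the line ptth120BC2) and whole wild-type animals (the line wOB), each a pool of about 15 animals, in 3 replicates for each stage of each genotype, which makes 48 libraries. PTTH is the brain neuropeptide that prompts the prothoracic gland to make the steroid hormone ecdysone, and the study compared the genotypes to see how gene expression develops when pupariation is late.

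Mutant early third-instar larvae (L3E) were collected 96 h after egg laying and late third-instar larvae (L3L) at 120 h. Wild-type L3E larvae were collected at 72 h and L3L larvae at 96 h. White prepupae (WP) were pupal day 0 in both genotypes, P1, P2, P3 and P4 were pupal days 1 to 4, and A0 adults were taken 1 to 3 h after emerging. The study describes a mutant allele with a small TALEN-made deletion in the last exon of *Ptth*, under another line name than the labels give, and whether the sequenced line carries it is not stated in the labels. With such an allele the level of the transcript does not check the genotype: *Ptth* was at 0.121 to 4.97 FPKM in the mutant libraries and at 0 to 3.42 FPKM in the wild-type libraries. The whole-animal pools hold all tissues, the sex of the animals is not given in the labels, and only 1 mutant line was sequenced in this series.

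Antimicrobial peptides are small cationic peptides that the fat body secretes into the haemolymph and that epithelia and haemocytes make locally. Their genes are switched on by the Imd pathway, which ends in the NF-κB factor Relish, and by the Toll pathway, which ends in Dif and Dorsal, and some are also expressed at set times of metamorphosis without a deliberate infection. Cecropins and Drosocin act mainly on Gram-negative bacteria, Defensin on Gram-positive bacteria and Metchnikowin on fungi and Gram-positive bacteria, while *Listericin* is known as an antibacterial gene that needs the peptidoglycan receptor PGRP-LE and the JAK-STAT pathway for its induction.

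The cecropins lie together on chromosome 3R in the BDGP6 build. *CecA1* (FBgn0000276) spans 30210874 to 30211273, *CecA2* (FBgn0000277) 30212156 to 30212568, *CecB* (FBgn0000278) 30213315 to 30213797 and *CecC* (FBgn0000279) 30216484 to 30216938, so that 6065 bases hold all 4, each with 2 exons and *CecB* on the minus strand. The other genes are single-exon genes of chromosome 2R: *Def* (FBgn0010385, 10054178 to 10054576, minus strand), *Listericin* (FBgn0033593, 11241745 to 11242194, minus strand), *Dro* (FBgn0010388, 14745961 to 14746714, plus strand) and *Mtk* (FBgn0014865, 15408846 to 15409113, plus strand). The cecropins are closely similar copies of one another, *CecA1* and *CecA2* above all, and how reads that match several of them were counted is not given in the sources used here, so the split of reads between them is uncertain. *CecA2* had 10 reads in all, in 5 of the 48 libraries, with a highest level of 0.399 FPKM in a wild-type P2 library. It lay under the filter of 3 FPKM in at least 1 library and was not tested, so 7 of the 8 genes were among the 12282 genes tested.

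Levels are FPKM (fragments scaled to transcript length and a library size). The library size implied by the values was not the number of reads on genes. It was 0.6303 to 1.495 times that number in mutant libraries and 0.7376 to 1.515 times in wild-type libraries. At L3E this ratio was lower in every mutant library than in every wild-type library, and at L3L higher. How the size was set is not given in the sources used here, and its part in the levels was not tested separately. All differences are on the log2(FPKM + 1) scale, mutant minus wild type, which understates the change of a gene with a low level. A gene was called different where limma gave an adjusted p under 0.05 (two-sided, Benjamini-Hochberg over the 12282 genes) and a change above 2-fold. Every p-value rests on the spread between replicate pools within groups, which limma moderates over all genes tested. In the fits over several stages this spread is pooled over all groups of the fit. Nothing in the labels says that the pools came from separate cultures. The libraries held 17346100 to 29784621 reads in mutants and 16712549 to 26091126 reads in wild type. The sum of 3 male marker genes was 0.239 to 1.82 FPKM in mutant A0 libraries and 0.201 to 0.320 FPKM in wild-type A0 libraries, against at least 27.2 FPKM in every library of the earlier stages, and its part in the steps to A0 was not tested. In pools of whole animals, fewer cells of a type and less RNA per cell cannot be told apart.

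Over development the 8 genes together were highest at P1, the first day after the white prepupa, and the leading gene changed between stages. Their summed level at P1 averaged 110.9 FPKM in mutants and 171 FPKM in wild type, and it was lowest at P4 in mutants (19.1 FPKM, against 27.6 FPKM in wild type) and at P3 in wild type (30.4 FPKM in mutants, 24.1 FPKM in wild type). *Listericin* made up 63.3% of the sum in mutant L3L larvae and 54.3% in wild-type L3L larvae. *Def* made up 61.5% in mutant P1 pupae and 59.2% in wild-type P1 pupae, and *Dro* 62.8% in mutant P3 pupae and 49.8% in wild-type P3 pupae. The genotypes had different leading genes at L3E, where *Listericin* was 39.1% of the sum in mutants and *Mtk* was 44.7% in wild type, and at P4, where *Dro* was 35.1% of the sum in mutants and *Listericin* 33.4% in wild type. At P2, *Def* was 61.3% of the sum in mutants but 27.9% in wild type, where *Dro*, *Mtk* and *CecC* took most of the rest.

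**Figure D1:**
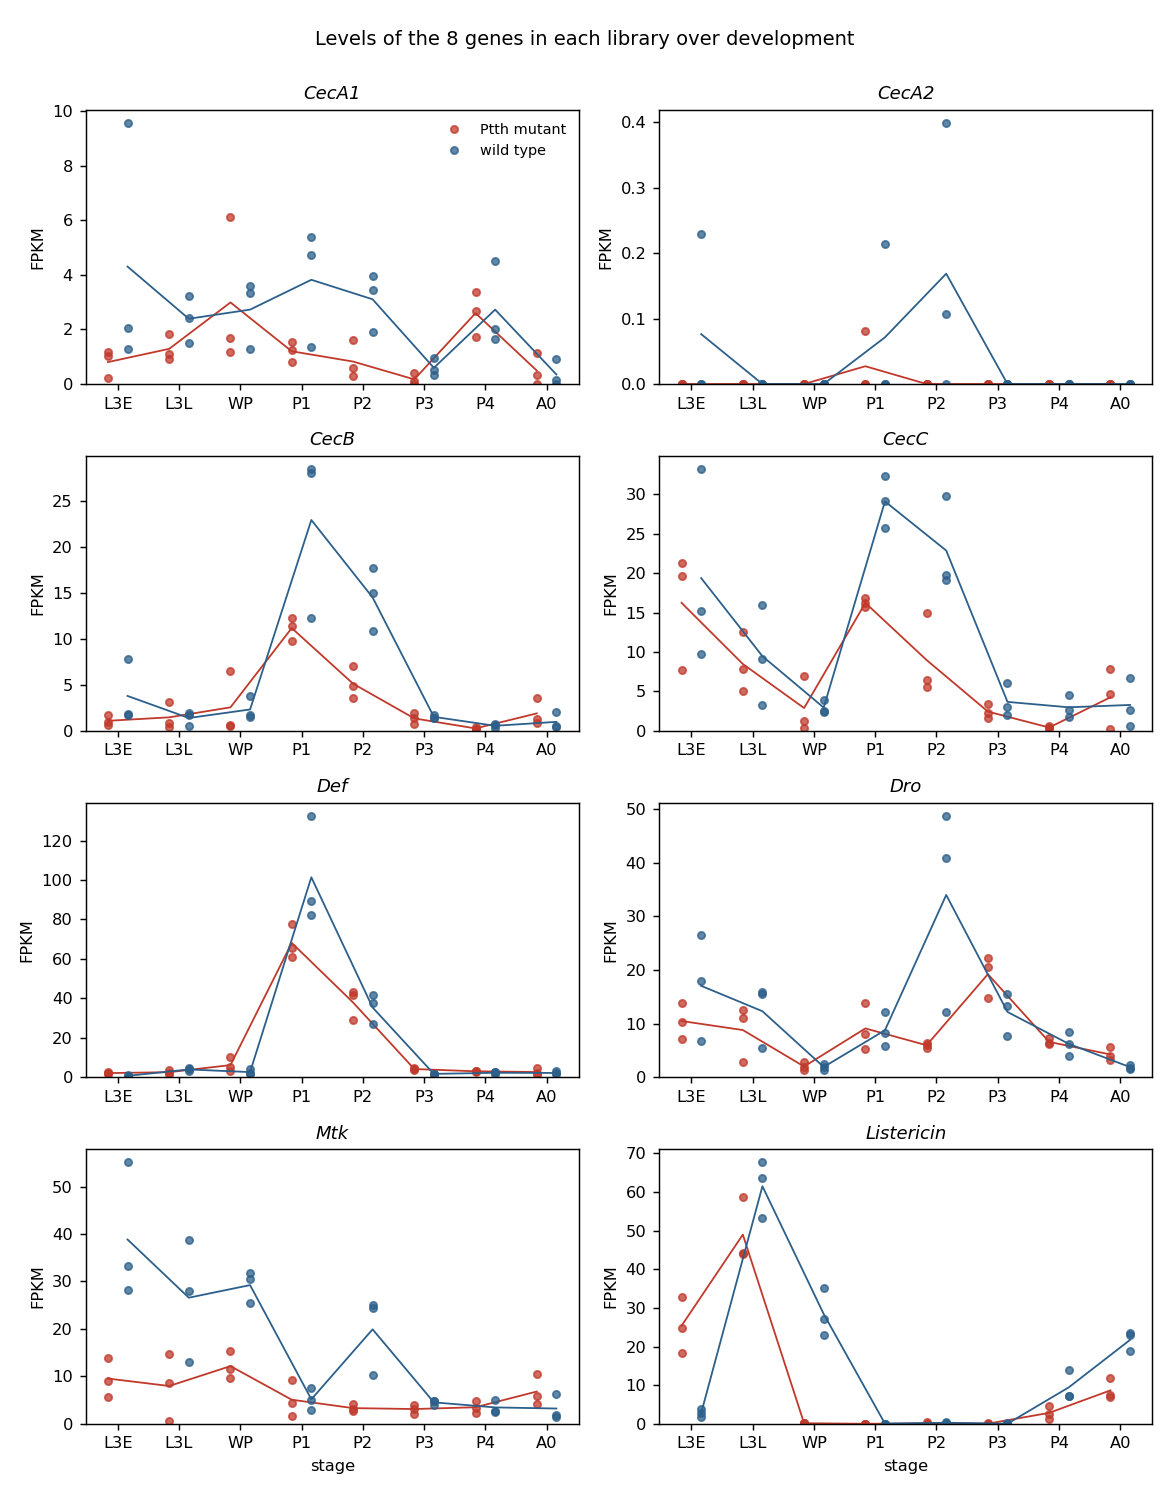
FPKM of each of the 8 genes (vertical axes, linear, 1 panel per gene with its own scale) at 8 stages in order of development (horizontal axes). Points are libraries, 3 per genotype and stage, red for *Ptth* mutants and blue for wild type, and lines join the group means; *Def* reached 132.5 FPKM at P1 in a wild-type library, while *Listericin* was at 67.7 FPKM or less and close to 0 from P1 to P3 in both genotypes.

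*Listericin* had the largest genotype differences of the 8 genes, higher in mutants among early larvae and lower among prepupae. At L3E it was at 32.9, 18.4 and 24.9 FPKM in the mutant libraries, against 2.70, 1.81 and 3.74 FPKM in the wild-type libraries. Every mutant library was above every wild-type library, and the gene was higher in mutants (log2 difference 2.81, SE 0.280, adjusted p = 0.00111, limma). At WP it was at 0.0842, 0.0883 and 0.256 FPKM in mutants, against 27.1, 35.1 and 23.1 FPKM in wild type. Here the mutant prepupae were all below the wild-type prepupae and close to 0, and the gene was lower in mutants (log2 difference -4.67, SE 0.167, adjusted p = 0.000381, limma). In reads these were 5 over the 3 mutant libraries and 1105 over the 3 wild-type libraries. Per unit of the implied library size, this is 197 times fewer in mutants (exact 95% interval 84.1 to 607, for counting error only).

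At L3L, between those stages, *Listericin* was at 43.9, 58.7 and 44.3 FPKM in mutants and 67.7, 53.3 and 63.6 FPKM in wild type. These ranges overlapped, and the difference did not pass (log2 difference -0.33, SE 0.146, adjusted p = 0.125, limma). Both genotypes were highest at this stage, and in each the L3L libraries lay above those of every other stage. From P1 to P3 every library of both genotypes was at 0.551 FPKM or less, and at P1 the mutant libraries held no read of the gene. It returned at P4, with 4.63, 1.26 and 2.60 FPKM in mutants and 7.25, 14.0 and 7.07 FPKM in wild type, and at A0, with 11.8, 6.83 and 7.36 FPKM in mutants and 23.5, 18.7 and 22.9 FPKM in wild type. The mutant libraries lay below all wild-type libraries at both stages, but the differences of -1.48 at P4 (adjusted p = 0.125, limma) and -1.26 at A0 (adjusted p = 0.0907, limma) did not pass. At A0, limma-voom on whole reads recovered from the FPKM gave -1.36 and an adjusted p of 0.0458, past the threshold. In a fit of all 48 libraries *Listericin* passed at both P4 and A0.

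The larval stages of the genotypes were not collected at equal ages. Mutant L3E and wild-type L3L larvae were both 96 h old, and between these groups *Listericin* was at 32.9, 18.4 and 24.9 FPKM in mutants and 67.7, 53.3 and 63.6 FPKM in wild type. It was lower in mutants at equal age (log2 difference -1.27, SE 0.219, adjusted p = 0.0143, limma), the reverse of the comparison at L3E. It was the 1 gene of the 7 tested to pass there, where 3.81% of all genes tested passed, and it no longer passed without wild-type L3L replicate 1 or replicate 3 (adjusted p up to 0.0607). *Mtk* at equal age differed by -1.34 (adjusted p = 0.108, limma), *CecA1* by -0.92 (adjusted p = 0.0860) and *Def* by -0.68 (adjusted p = 0.0529), none of which passed.

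Marker sums of haemocytes and of the fat body also differed between the genotypes at some of these stages. The sum of 8 haemocyte markers was 457 to 574 FPKM in mutants and 177 to 221 FPKM in wild type at L3E, 367 to 501 FPKM in mutants and 586 to 661 FPKM in wild type at L3L, and 42.4 to 44.9 FPKM in mutants and 86.8 to 123 FPKM in wild type at WP. At WP, 2 of the 8 passed, where 1.56% of all genes passed, both lower in mutants: *PPO1* (-4.31) and *PPO2* (-3.52), prophenoloxidases of crystal cells, which averaged 0.419 and 2.56 FPKM in mutants against 28.1 and 40.5 FPKM in wild type. The WP sum averaged 43.9 FPKM in mutants and 110 FPKM in wild type, so most of its gap lay in these 2 genes. At L3E, 1 of the 8 passed, *PPO2*, higher in mutants by 2.01, where 17.2% of all genes passed, and at L3L 1 of the 8, *PPO1*, lower in mutants (-2.61), where 10.8% did. Most of the gap in the sum again lay in these genes. *PPO2* at L3E averaged 388 FPKM in mutants and 95.7 FPKM in wild type, and *PPO1* at L3L 29.8 and 184 FPKM. *Listericin* at L3L differed by -0.33 (adjusted p = 0.125, limma), without a call, and the haemocyte sums there were lower in mutants without overlap. The sum of 6 fat body markers was 37799 to 41194 FPKM in mutants and 1930 to 5342 FPKM in wild type at L3E, with 6 of 6 markers higher in mutants. At L3L it was 20324 to 29818 FPKM in mutants and 36369 to 40066 FPKM in wild type, and at WP its ranges overlapped (15109 to 17693 FPKM in mutants and 14374 to 17229 FPKM in wild type). At equal age, the fat body sums of mutant L3E and wild-type L3L larvae overlapped. There 1 of 6 fat body markers passed, *Fbp1*, lower in mutants (-3.64), where 3.81% of all genes passed. None of these markers was at 0 throughout a group at these stages, and their part in the *Listericin* result was not tested.

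*Mtk*, the Metchnikowin gene, was lower in mutants at 3 stages. At L3E it was at 8.94, 14.0 and 5.71 FPKM in mutants, against 28.2, 33.3 and 55.1 FPKM in wild type. The groups did not overlap and the gene passed (log2 difference -1.94, SE 0.378, adjusted p = 0.0108, limma). At WP it was at 11.4, 15.3 and 9.74 FPKM in mutants, against 31.9, 25.4 and 30.4 FPKM in wild type. All mutant prepupae were again below the wild-type prepupae (log2 difference -1.22, SE 0.173, adjusted p = 0.0205, limma). At P2 it was at 4.11, 2.63 and 3.17 FPKM in mutants, against 24.4, 25.0 and 10.4 FPKM in wild type. Wild-type P2 replicate 3 was the lowest of its group but still above every mutant library (log2 difference -2.20, SE 0.361, adjusted p = 0.0302, limma).

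These 3 calls differed in how far they rested on single libraries. The L3E call of *Mtk* passed whichever of the 6 libraries was left out. The WP call passed in 1 of 6 cases, without mutant replicate 2, with adjusted p up to 0.131 over its alternatives, and the P2 call passed in 1 of 6, without wild-type replicate 3, with adjusted p up to 0.0974. In all of these alternatives *Mtk* was lower in mutants. At L3L the gene was at 0.598, 8.50 and 14.8 FPKM in mutants and 38.8, 13.0 and 27.9 FPKM in wild type. The highest mutant larvae overlapped the lowest wild-type pool, mutant replicate 1 was far below the others, and the difference of -2.02 did not pass (SE 0.942, adjusted p = 0.139, limma). At P1, P3 and P4 the genotypes were within 0.45 of each other on the log2 scale. At A0 *Mtk* was at 4.08, 5.88 and 10.4 FPKM in mutants and 1.78, 1.49 and 6.38 FPKM in wild type, with overlap and no call (log2 difference 0.99, SE 0.534, adjusted p = 0.441, limma).

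*Dro*, the Drosocin gene, had its highest stage at P3 in mutants and at P2 in wild type. At P2 it was at 6.38, 5.45 and 6.05 FPKM in mutants, against 48.8, 40.9 and 12.2 FPKM in wild type. Every mutant library was below every wild-type library, with replicate 3 far below the other wild-type pools, and the difference did not pass (log2 difference -2.12, SE 0.519, adjusted p = 0.0638, limma). Without wild-type replicate 3 it passed, as it did in a fit of all 48 libraries. At P3 the levels were 22.2, 20.6 and 14.8 FPKM in mutants and 7.68, 13.3 and 15.6 FPKM in wild type, which overlapped (log2 difference 0.65, SE 0.280, adjusted p = 0.137, limma). At A0 they were 3.21, 3.92 and 5.61 FPKM in mutants and 1.76, 1.52 and 2.35 FPKM in wild type, without overlap but also without a call (log2 difference 0.85, SE 0.205, adjusted p = 0.152, limma). Levels at WP were low in both, at 1.99 ± 0.70 FPKM in mutants and 1.91 ± 0.505 FPKM in wild type (mean ± SD, n = 3 each).

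The expressed cecropins were low to moderate, and in wild type *CecB* and *CecC* had their highest means on the first days of the pupa. *CecC* at L3E was at 21.4, 19.6 and 7.75 FPKM in mutants and 33.2, 9.76 and 15.2 FPKM in wild type. The wild-type L3E libraries overlapped those of P1 and P2, and the mutant means at L3E and P1 were nearly equal (16.23 and 16.22 FPKM). *CecB* at P1 was at 12.3, 11.4 and 9.79 FPKM in mutants and 28.5, 28.1 and 12.3 FPKM in wild type, and *CecC* at 16.2, 16.8 and 15.6 FPKM in mutants and 29.2, 32.4 and 25.8 FPKM in wild type. The *CecC* groups were apart, and its difference had an adjusted p of 0.00334 but lay under 2-fold (-0.80, limma), while *CecB* overlapped narrowly (log2 difference -0.89, SE 0.334, adjusted p = 0.0845, limma). At P2 *CecB* was at 4.83, 3.50 and 7.0 FPKM in mutants, against 14.9, 17.7 and 10.9 FPKM in wild type, a called difference (log2 difference -1.36, SE 0.266, adjusted p = 0.0410, limma). *CecC* at P2 was at 6.49, 5.48 and 14.9 FPKM in mutants and 19.1, 29.8 and 19.7 FPKM in wild type, and *CecA1* at 0.296, 0.577 and 1.60 FPKM in mutants and 1.89, 3.97 and 3.44 FPKM in wild type. Neither overlapped between genotypes, and neither passed, at -1.35 for *CecC* (adjusted p = 0.0871, limma) and -1.20 for *CecA1* (adjusted p = 0.0796, limma).

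*CecC* was called at P4, at 0.330, 0.294 and 0.551 FPKM in mutants, against 4.47, 2.66 and 1.74 FPKM in wild type (log2 difference -1.45, SE 0.252, adjusted p = 0.0470, limma). These were low levels in both genotypes, and all mutant libraries lay below all wild-type libraries. Neither the *CecB* call at P2 nor the *CecC* call at P4 passed when any 1 of its 6 libraries was left out (adjusted p up to 0.124 for *CecB* and 0.174 for *CecC*), although the sign stayed the same. *CecA1* was at 9.57 FPKM or less in every library. Its level in L3E larvae was 0.208, 1.17 and 1.03 FPKM in mutants and 9.57, 2.04 and 1.29 FPKM in wild type, where replicate 1 stood far above the rest, and the difference did not pass (log2 difference -1.26, SE 0.624, adjusted p = 0.165, limma). At P3 and A0 it was at 1.13 FPKM or less in all libraries of both genotypes.

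*Def*, the Defensin gene, reached the highest level of the 8 genes, with its peak at P1 in both genotypes. It was at 77.9, 60.8 and 65.6 FPKM in mutant P1 pupae and 89.5, 133 and 82.1 FPKM in wild-type P1 pupae. All mutant libraries were below the wild-type libraries, and the difference did not pass (log2 difference -0.54, SE 0.201, adjusted p = 0.0823, limma). At P2 the levels overlapped, at 43.1, 28.9 and 41.7 FPKM in mutants and 37.4, 41.8 and 26.8 FPKM in wild type. Of the 8 genes only *Def* had all mutant libraries above the wild-type libraries at both L3E and P3. At L3E it was at 2.47, 2.19 and 1.57 FPKM in mutants and 0.610, 0.157 and 1.28 FPKM in wild type, and at P3 at 4.53, 3.62 and 4.30 FPKM in mutants and 1.61, 1.67 and 1.72 FPKM in wild type. Both had an adjusted p under 0.05 but lay under 2-fold on the log2(FPKM + 1) scale, at 0.91 for L3E (adjusted p = 0.0421) and 0.94 for P3 (adjusted p = 0.00463, limma). In limma-voom on recovered reads they were 1.83 at L3E (adjusted p = 0.0487) and 1.27 at P3 (adjusted p = 0.0114), both past the threshold.

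Stage by stage, 7 of the 56 gene and stage pairs tested passed, 1 higher and 6 lower in mutants. At L3E 2 of 7 genes passed, *Listericin* higher and *Mtk* lower, where 17.2% of all genes tested passed. At WP 2 of 7 passed, *Mtk* and *Listericin* lower, against 1.56% of all genes. At P2 2 of 7 passed, *CecB* and *Mtk* lower, against 1.17%, and at P4 1 of 7 passed, *CecC* lower, against 1.03%. With limma 0 of 7 passed at L3L (all genes 10.8%), P1 (2.38%), P3 (3.12%) and A0 (0.448%). At these stages 0, 3, 1 and 2 of the 7 had an unadjusted p under 0.05, and limma-voom called 0, 0, 1 and 1. The median difference of the 7 genes was lowest at P2, at -1.35, against 0.01 over all genes tested, and at the other stages it lay between -0.54 and 0.18.

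**Figure D2:**
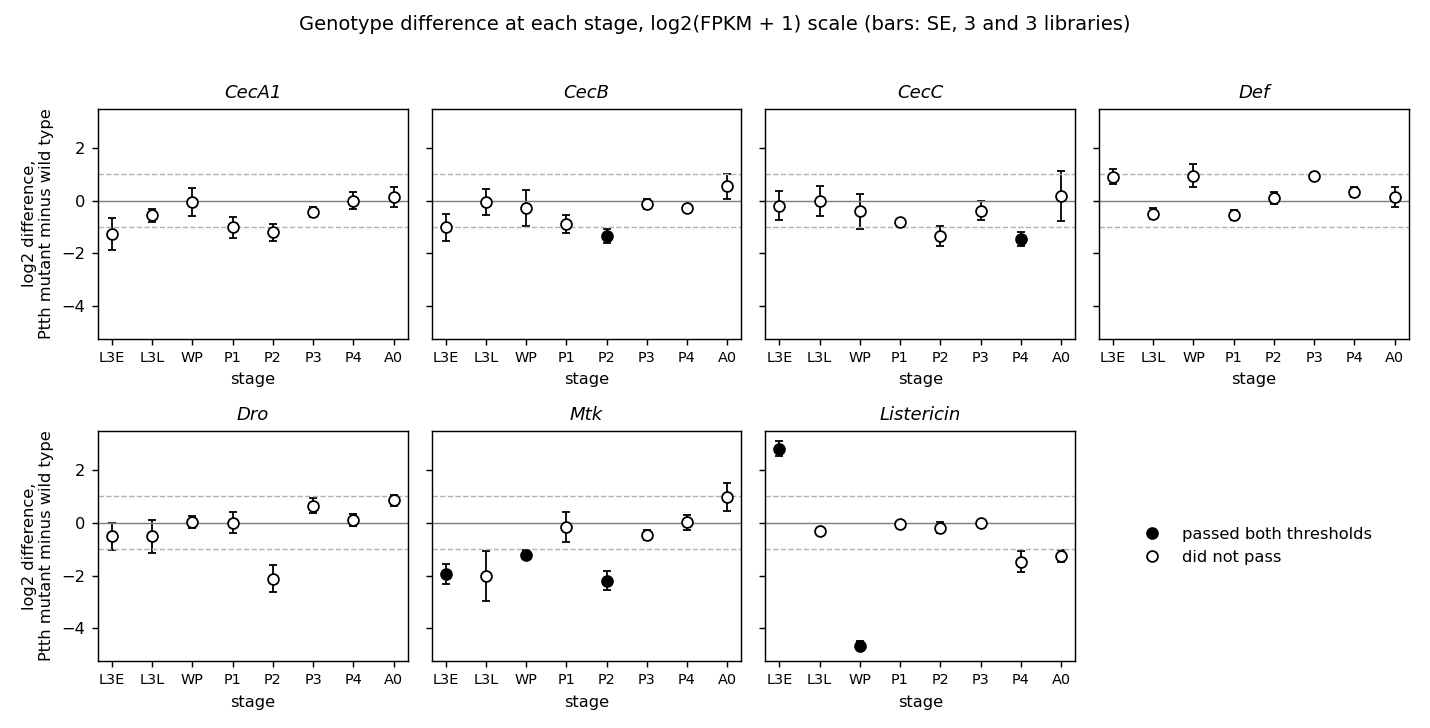
Genotype difference of the 7 tested genes (vertical axes, mutant minus wild type on the log2(FPKM + 1) scale, 1 panel per gene) at 8 stages (horizontal axes), with bars of 1 SE from limma, 3 mutant and 3 wild-type libraries per stage. Filled points passed both thresholds, dashed lines mark 2-fold, and *Listericin* stands out with 2.81 at L3E and -4.67 at WP.

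Separation of the libraries was counted as well. At P2, 5 of 7 genes (*CecA1*, *CecB*, *CecC*, *Dro* and *Mtk*) had all mutant libraries below all wild-type libraries and 0 above, where the genotypes did not overlap for 34.7% of all genes tested. At L3E 5 of 7 did not overlap (*Def* and *Listericin* above, *CecA1*, *CecB* and *Mtk* below in mutants), where 54% of all genes did not. At WP 2 of 7 did not overlap against 37.2%, at P1 2 of 7 (*CecC* and *Def*, below in mutants) against 53.3%, and at P3 1 of 7 (*Def*, above) against 47.2%. At P4 3 of 7 did not overlap (*Def* above, *CecC* and *Listericin* below) against 27.1%, at A0 2 of 7 (*Dro* above, *Listericin* below) against 21%, and at L3L 0 of 7 against 56.7%. Haemocyte markers summed to 26.7 to 31.1 FPKM in mutants and 28.2 to 29.0 FPKM in wild type at P2, and fat body markers to 3277 to 3829 FPKM in mutants and 3555 to 4564 FPKM in wild type. Of the haemocyte markers 1 of 8 passed at P2, *PPO2*, higher in mutants by 1.66, where 1.17% of all genes passed, and 4 of 8 had an unadjusted p under 0.05. Of the fat body markers 0 of 6 passed in limma at P2, with 3 at an unadjusted p under 0.05 and 0 with limma-voom. The part of these cells in the P2 values was not tested.

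**Figure D3:**
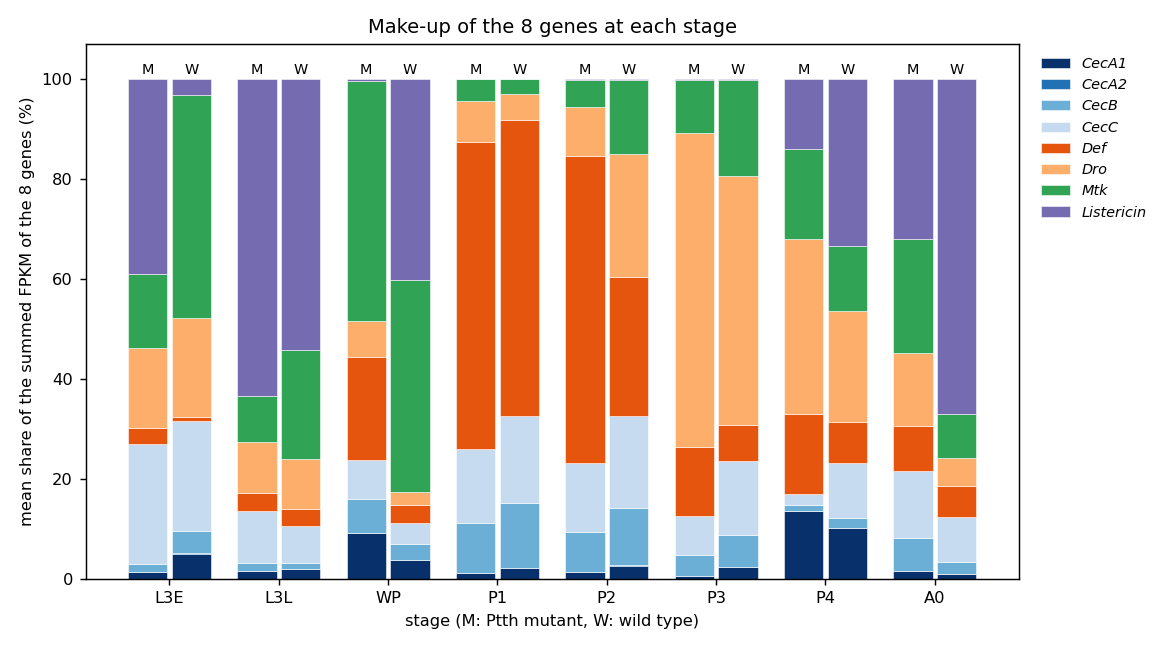
Mean share of each gene in the summed FPKM of the 8 genes (vertical axis, percent, stacked bars to 100) at each stage (horizontal axis), *Ptth* mutants (M) left and wild type (W) right, 3 libraries each. *Listericin* was 39.1% of the sum in mutant L3E larvae, against *Mtk* with 44.7% in wild-type L3E larvae, and *Def* was 61.3% at P2 in mutants and 27.9% in wild type.

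The course of each gene within a genotype was tested between consecutive stages, with all 24 libraries of the genotype in 1 fit. In mutants, 16 of the gene and step pairs passed, and in wild type 25. From L3E to L3L, 0 of 7 genes passed in mutants (15.8% of all genes tested, with 1 at an unadjusted p under 0.05 and 0 with limma-voom). In wild type 2 of 7 passed (20%), where *Listericin* rose by 4.08 and *Def* by 1.59. *Listericin* rose in mutants as well, by 0.95 with an adjusted p of 0.00338 (limma), but under 2-fold. From L3L to WP, 3 of 7 passed in mutants (19.7%) and 3 of 7 in wild type (32%), namely *CecC*, *Dro* and *Listericin*, all lower at WP. *Def* rose in mutants by 0.92 with an adjusted p of 0.0124 (limma), also under 2-fold. The *Listericin* step was -5.44 in mutants and -1.10 in wild type, so the gene was nearly gone in mutant white prepupae and still at about the level of A0 in wild-type ones.

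The step from WP to P1 had the most genes rising. In mutants 4 of 7 genes passed (22.6% of all genes), *Def* with 3.39, *CecC* with 2.56, *CecB* with 2.21 and *Dro* with 1.69, all upward. In wild type 6 of 7 passed (16.1%). The same 4 genes rose, *Def* by 4.88, *CecC* by 2.96, *CecB* by 2.83 and *Dro* by 1.71, while *Mtk* (-2.36) and *Listericin* (-4.81) fell.

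From P1 to P3 fewer steps were called in mutants. From P1 to P2, 0 of 7 genes passed in mutants (13.3% of all genes, with 2 at an unadjusted p under 0.05 and 1 with limma-voom). In wild type 3 of 7 passed (15.5%), where *Mtk* (1.74) and *Dro* (1.68) rose and *Def* fell (-1.49). *Def* fell in mutants as well (-0.84, adjusted p = 0.0238, limma), but under 2-fold. From P2 to P3, 3 of 7 passed in mutants (12.1%): *Def* (-2.90) and *CecB* (-1.39) fell and *Dro* rose (1.52). In wild type 6 of 7 passed (15.3%), all downward and *Dro* with them (-1.25), with *Listericin*, already near 0, as the exception.

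The last steps led to the emerged adult. From P3 to P4, 3 of 7 passed in mutants (19.1%), with *Listericin* (1.79) and *CecA1* (1.61) upward and *Dro* (-1.40) downward, and 2 of 7 in wild type (19.6%), with *Listericin* (3.28) and *CecA1* (1.17) upward. From P4 to A0, 3 of 7 passed in mutants (23.8%), *CecC* (1.51) and *Listericin* (1.40) upward and *CecA1* (-1.32) downward. In wild type 3 of 7 passed (22.4%), *Listericin* (1.18) upward and *CecA1* (-1.44) and *Dro* (-1.29) downward. Some step calls did not pass when 1 replicate number was left out. In mutants these were *CecC* (L3L to WP and P4 to A0), *Dro* (L3L to WP), *CecB* (P2 to P3) and *CecA1* (P4 to A0). In wild type they were *CecC* (L3L to WP), *Listericin* (L3L to WP and P4 to A0), *Dro* (P1 to P2, P2 to P3 and P4 to A0) and *CecA1* (P2 to P3, P3 to P4 and P4 to A0).

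The order of the stages shows which of these levels stood apart. *Def* at P1 lay above P2, and P2 above every remaining stage, without overlap in either genotype. *Listericin* was in the order L3L, L3E, A0, P4 in mutants, with each of these stages clear of the next, and in the order L3L, WP, A0, P4, L3E in wild type, where only WP and A0 overlapped among neighbours. *Dro* at P3 in mutants stood clear of its next stage, L3E, while in wild type the P2 and L3E libraries overlapped. *Mtk* showed no break between neighbouring stages in mutants, where all means lay between 3.11 and 12.2 FPKM, and 1 in wild type, between P2 (19.9 ± 8.27 FPKM) and P1 (5.15 ± 2.28 FPKM, mean ± SD, n = 3 each).

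Whether the genotype difference itself changed from 1 stage to the next was tested in a fit of all 48 libraries, with an adjusted p under 0.05 as the threshold. In all, 9 gene and step pairs passed. From L3E to L3L, 2 of 7 genes passed (40.4% of all genes), *Listericin* (-3.14) and *Def* (-1.40). From L3L to WP, 2 of 7 passed (22.4%), *Listericin* (-4.34) and *Def* (1.44), and from WP to P1 2 of 7 (7.57%), *Listericin* (4.62) and *Def* (-1.49). *Dro* was the 1 of 7 to pass from P1 to P2 (-2.13, 8.57% of all genes) and from P2 to P3 (2.77, 10.6%), and *Listericin* the 1 of 7 from P3 to P4 (-1.48, 3.53%). From P4 to A0, 0 of 7 passed in limma (2.99%), with 0 at an unadjusted p under 0.05 and 0 with limma-voom. *Mtk* and the tested cecropins did not pass at any step, so a difference between stages in their genotype difference was not detectable at this threshold with these libraries. For *Mtk* the change was -2.03 from P1 to P2 (unadjusted p = 0.0113, adjusted p = 0.0982, limma). From P2 to P3 it was 1.75 (unadjusted p = 0.0276, adjusted p = 0.135, limma).

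Some of the genes varied together between replicate pools of 1 group. After the group means were taken away, the log2 levels over the 48 libraries correlated at 0.73 for *CecA1* and *CecB*, 0.71 for *CecB* and *CecC* and 0.54 for *CecA1* and *CecC*. *Dro* and *Mtk* correlated at 0.66, while the cecropins correlated with *Dro* or *Mtk* at -0.00 (*CecA1* and *Dro*) to 0.35 (*CecC* and *Mtk*). *Def* correlated with the 6 other genes at 0.08 (*Mtk*) to 0.37 (*CecB*), and *Listericin* at 0.07 (*CecA1*) to 0.33 (*Def*). These are descriptions over genes that share the animals of a pool and its depth. The split of reads between the cecropins is uncertain, and its part in their correlations was not tested. Mutant WP replicate 3 was the highest of its group for *CecA1* (1.68, 1.17 and 6.12 FPKM in replicates 1 to 3), *CecB* (0.624, 0.467 and 6.51 FPKM), *CecC* (0.392, 1.24 and 6.96 FPKM) and *Def* (5.13, 3.19 and 10.1 FPKM), but the lowest for *Mtk*. Wild-type L3E replicate 1 likewise had the highest *CecA1*, *CecB* and *CecC* and the lowest *Dro* and *Mtk* of its group. Of the antimicrobial peptide genes outside the 8, *AttB* varied most closely with *CecB* (0.73), and *Dpt* with *Mtk* (0.77).

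**Figure D4:**
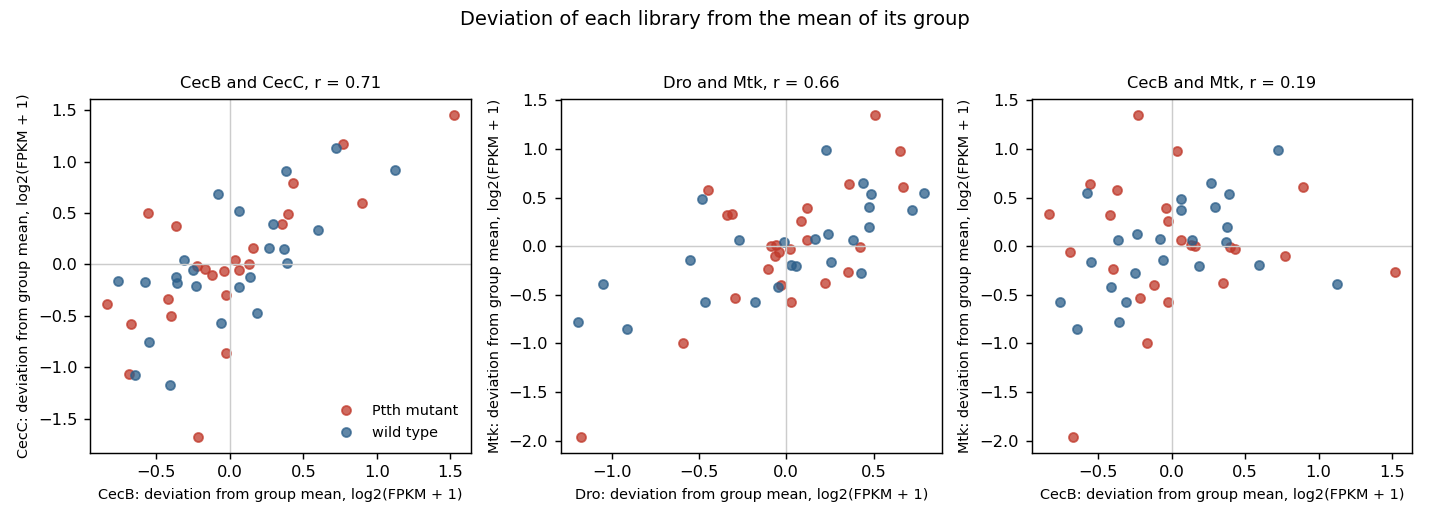
Deviation of each of the 48 libraries from the mean of its genotype and stage on the log2(FPKM + 1) scale, for *CecB* and *CecC*, *Dro* and *Mtk*, and *CecB* and *Mtk* (1 panel per pair, 1 gene per axis). Points are libraries, red for *Ptth* mutants and blue for wild type; the first 2 pairs rise together (r = 0.71 and 0.66) and the third less so (r = 0.19).

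Over all 48 libraries, where stage dominates, the genes most like each of the 7 were different for each, as a description by Pearson's r of log2(FPKM + 1). *Def* was most like *CG15169* (0.96), *CG13023* (0.95) and *CR45391* (0.93), and *Listericin* most like *CG15155* (0.89), *CG16727* (0.88) and *Cyp6d5* (0.88). *CecB* was most like *neur* (0.88), *dsx-c73A* (0.87) and *CG7173* (0.86), and *CecC* most like *GstD3* (0.80), *PGRP-SD* (0.79) and *Obp56a* (0.78). *Mtk* was most like *DptB* (0.79), *GlcAT-I* (0.74) and *CG7840* (0.73), *Dro* most like *Ndg* (0.76), *CG10898* (0.73) and *CG4335* (0.71), and *CecA1* most like *pgant8* (0.65), *Act5C* (0.63) and *Zip102B* (0.59). Of these, *PGRP-SD* encodes a peptidoglycan recognition protein and *DptB* a diptericin.

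Some of the other antimicrobial peptide genes were lower in mutants among larvae and prepupae. Of the 6 tested, 3 were lower and 0 higher in mutants at L3E, where 17.2% of all genes passed, led by *AttC* (-2.38) and *DptB* (-1.99), and the median was -1.73 against 0.02 over all genes. At L3L 2 of 6 were lower, against 10.8% of all genes, *Drs* (-3.92), the antifungal Drosomycin gene, and *AttD* (-1.02), and the same 2 were lower at WP, *AttD* by -2.10 and *Drs* by -1.52, where 1.56% of all genes passed and the median of the 6 was -0.16. At P2 0 of 6 passed in limma (4 at an unadjusted p under 0.05, 0 with limma-voom), with a median of -1.38 against 0.01, where that of the 7 genes described was -1.35. At equal age, mutant L3E against wild-type L3L, 2 of 6 were lower, *Drs* (-4.29) and *Dpt* (-2.79), where 3.81% of all genes passed.

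The pathways that switch on these peptides were read beside the share of all genes that passed, which was 17.2% for L3E, 10.8% for L3L, 2.38% for P1 and 1.03% for P4. Of 13 Imd pathway genes, 0 passed in limma at any of the 8 stages, with 2 to 6 at an unadjusted p under 0.05 per stage, 0 with limma-voom and medians of -0.17 to 0.06. Among 12 negative regulators of Imd, 2 were higher in mutants at L3E, the peptidoglycan amidases *PGRP-SC2* (2.21) and *PGRP-SC1b* (1.39), and 2 were lower at L3L, *PGRP-SC1a* (-1.91) and *PGRP-SC1b* (-1.12). Of 15 Toll pathway genes, 1 was higher at L3E, the recognition gene *PGRP-SA* (1.54), and 1 lower at L3L, *SPE* (-2.14), the protease that processes the Toll ligand. In the JAK-STAT list of 7 tested, on which *Listericin* is known to depend, the target *TotA* was higher (3.55) and *Socs36E* lower (-2.28) at L3E. *Socs36E* is a feedback inhibitor whose mRNA the study also reads as a sign of JAK-STAT signalling, so these calls went opposite ways. At P4 *TotM* (1.39) and *TotA* (1.05) were higher. Of 9 ecdysone receptor and response genes, 3 passed at L3E, *ftz-f1* (-1.66) and *Hr4* (-1.56) lower and *br* (1.38) higher. At P1 2 passed, *Hr4* (1.62) and *Hr46* (1.53), both higher in mutants. At equal age, mutant L3E against wild-type L3L, 3.81% of all genes passed. There 3 of these 9 passed, all lower in mutants: *br* (-1.30), the reverse of L3E, *Eip74EF* (-1.19) and *EcR* (-1.01). Of the Imd, Toll and JAK-STAT lists only *PGRP-SC1b* passed in limma at equal age, higher by 1.38.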

How the data were processed

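The 8 genes and all gene lists were chosen with earlier results of these data known. The authors deposited 1 table of FPKM per gene and library with gene lengths. The study's methods name Fastx, STAR, htseq-count and DESeq2, whereas the submitters' processing notes name HISAT2 2.0.5 and featureCounts 1.5.0-p3 with BDGP6; which made the table could not be settled. FPKM times length, divided by the value of 1 read in that library, came out whole (within 0.001) for 100% of values, and the recovered reads were used only for limma-voom, depth and read counts. Multi-mapped reads were handled in a way not given in the sources used here.

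Libraries were grouped by their labels, and 0 columns were unmapped. log2(FPKM + 1) was tested with limma 3.58.1 in R 4.3.3 (lmFit, eBayes with trend), 6 libraries per stage, 24 per genotype for steps and 48 for interactions, on 12282 genes with a maximum of at least 3 FPKM, after a run on simulated data. Genes named besides the 8 were at most the 2 largest calls per list and stage, up to 20, the 3 nearest genes by correlation, and *AttB*, *br*, *EcR*, *PPO1* and *PPO2*, chosen after their values were seen. Alternatives were a pseudocount of 0.1, no filter, limma-voom, quantile normalization, a replicate block, 1 fit of all 48 libraries and leaving out each replicate. Tables were handled in pandas 2.3.3 (numpy 2.4.6, Python 3.11.15) and plotted with matplotlib 3.10.9. Identifiers and positions of all 8 genes were the same in the reference annotation.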

Additional observations from a re-analysis of the deposited data

Results flagged for a closer look

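Each result here is a genotype difference that changed from 1 stage to the next, by an interaction term in limma over all 48 libraries (adjusted over 12282 genes). Values are the change of the log2 difference, mutant minus wild type, between the stages. For *Listericin* the difference moved by -3.14 from L3E to L3L (adjusted p = 1.70e-09), by -4.34 from L3L to WP (adjusted p = 5.12e-12), by 4.62 from WP to P1 (adjusted p = 1.05e-12) and by -1.48 from P3 to P4 (adjusted p = 0.00929). The earlier 3 of these passed with all 3 replicate numbers left out in turn and in limma-voom, while the P3 to P4 change passed in 1 of 3 and had an adjusted p of 0.518 in limma-voom.

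For *Def* the difference moved by -1.40 from L3E to L3L (adjusted p = 0.00750), by 1.44 from L3L to WP (adjusted p = 0.0133) and by -1.49 from WP to P1 (adjusted p = 0.0207). None of the 3 passed in limma-voom (adjusted p 0.0796, 0.141 and 0.0537). For *Dro* it moved by -2.13 from P1 to P2 (adjusted p = 0.0273) and by 2.77 from P2 to P3 (adjusted p = 0.00589). Both passed in limma-voom, but only without replicate 3 when 1 replicate number was left out, the number of the wild-type P2 pool with 12.2 FPKM of *Dro*.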

How the results depend on the processing

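Of the alternatives to counts of genes, 95 kept the count within 1.5 times and 36 did not. A pseudocount of 0.1 called 1 gene at P3. No filter called 0 at P2 and 0 at P4. limma-voom called 1 at P3 and 1 at A0, and 5 changes of the genotype difference. Quantile normalization called 1 at P1, 1 at P3 and 0 at P4. The fit of all 48 libraries called 1 at L3L, 1 at WP and 1 at A0, and at P4 it called *Listericin* and not *CecC*. The replicate block called 1 at WP, 0 at P2 and 0 at P4; same-numbered libraries did not deviate together (24 pairs, median r -0.027, 6 over 0.1), so the numbers were not taken as pairs. Leaving out 1 replicate gave 1 to 2 genes at WP, 0 to 2 at P1, 0 to 2 at P2, 0 to 1 at P3, 0 at P4, 0 to 1 at equal age and 4 to 6 changes of the genotype difference. Among single genes, 608 values stayed on their side of the threshold, 89 lost the call, 45 gained one and 1 changed sign: the uncalled L3E to L3L step of *Mtk* in mutants, -1.65 to 0.29 when 1 replicate was left out, with 0.29 without replicate 1. The causes were not tested. Over all genes, calls at A0 were 55, but 1 with the replicate block and 161 in the fit of all 48 libraries, at WP 192 but 64 with the block, and at P1 292 but 727 with limma-voom.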
